A study of Mus musculus with 16 samples.

Results

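The cytoplasmic ribosomal protein genes are the genes named Rpl or Rps with a number, together with Rplp0, Rplp1, Rplp2 and Rpsa, which encode the protein subunits of the cytosolic ribosome. Members were chosen by symbol alone, through the RefSeq transcript given for each array probe, and the S6 kinases, Rps19bp1 and pseudogenes were left out. Of 88 RefSeq genes that met the rule, 83 had a probe among the 13459 genes tested, 51 of the large subunit and 32 of the small subunit. Rpl10l, Rpl32l, Rpl37rt, Rps23rg1 and Rps27rt had none. Hippocampal RNA was taken from males of 2 inbred mouse strains, SAM/P-8, a senescence-accelerated line, and SAM/R-1, the senescence-resistant line bred alongside it, both with AKR/J given as background strain. The groups were SAM/P-8 fed CCH (coral calcium hydride, 0.1% of the CE-2 rodent diet), SAM/P-8 on the CE-2 control diet, SAM/R-1 fed CCH and SAM/R-1 on the control diet, with 4 one-colour arrays in each. Per the study's design, feeding began at 8 weeks of age and lasted 8 weeks. No genotype, transgene or drug beyond strain and diet is given. The labels do not say that the arrays of a group came from separate mice, so p-values here speak of the spread among these arrays alone.

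Each cytosolic ribosome carries one copy of nearly every one of these proteins, and their genes are therefore transcribed in near balance and are among the most abundant messages of a cell. The P-stalk proteins, Rplp0, Rplp1 and Rplp2, recruit the elongation factors. Many of the messages begin with a 5′ terminal oligopyrimidine tract, a C followed by a run of C and T, through which the kinase complex mTORC1 adjusts their translation, and their promoters often hold sites for factors of the ETS family. In hippocampal neurons ribosomes work in the cell body and in dendrites, where local protein synthesis is part of long-lasting synaptic plasticity. An array reads the amount of message and not the amount of protein or its translation.

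Promoter entries were present in the RefSeq table (build GRCm38.p6) for 63 of the 83 genes. Rpl30 and Rpl36 have none. Printed here are some of the members described below with an entry, namely Rpl13a, Rps15, Rpl28, Rpl38, Rps26, Rpl35 and Rpl7l1, with the gene of the S6 kinase substrate Rps6 and with Rpl39l, a paralog near the detection limit. Each line gives 100 bases before the listed start and 20 bases from it, 5′ to 3′ on the strand of the gene, with capitals for a tract at the start (a C followed by at least 4 C or T) and for the ETS-type motif CCGGAAG on either strand.
Rpl13a, minus strand, chr7:45128726-45128845: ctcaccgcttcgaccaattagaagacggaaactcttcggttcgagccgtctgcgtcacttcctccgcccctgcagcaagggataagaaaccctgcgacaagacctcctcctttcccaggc
Rps15, plus strand, chr10:80292331-80292450: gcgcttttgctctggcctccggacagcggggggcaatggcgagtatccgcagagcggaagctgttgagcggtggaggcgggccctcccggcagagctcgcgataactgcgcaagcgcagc
Rps26, minus strand, chr10:128626487-128626606: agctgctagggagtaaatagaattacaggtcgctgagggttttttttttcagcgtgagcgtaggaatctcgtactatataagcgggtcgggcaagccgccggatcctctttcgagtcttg
Rpl28, plus strand, chr7:4792865-4792984: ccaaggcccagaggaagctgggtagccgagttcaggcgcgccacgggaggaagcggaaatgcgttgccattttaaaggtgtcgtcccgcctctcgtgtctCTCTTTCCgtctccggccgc
Rpl38, plus strand, chr11:114668480-114668599: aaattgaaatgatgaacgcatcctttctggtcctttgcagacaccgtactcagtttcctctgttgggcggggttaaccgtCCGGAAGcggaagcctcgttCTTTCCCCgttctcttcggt
Rpl35, minus strand, chr2:39005112-39005231: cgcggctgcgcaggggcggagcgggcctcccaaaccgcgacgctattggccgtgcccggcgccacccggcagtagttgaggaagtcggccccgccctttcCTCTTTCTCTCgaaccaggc
Rps6, minus strand, chr4:86857348-86857467: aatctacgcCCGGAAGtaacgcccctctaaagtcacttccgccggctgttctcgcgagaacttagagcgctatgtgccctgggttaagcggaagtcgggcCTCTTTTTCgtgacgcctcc
Rpl7l1, minus strand, chr17:46782637-46782756: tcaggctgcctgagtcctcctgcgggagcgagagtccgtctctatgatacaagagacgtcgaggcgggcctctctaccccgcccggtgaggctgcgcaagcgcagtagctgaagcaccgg
Rpl39l, plus strand, chr16:10170128-10170247: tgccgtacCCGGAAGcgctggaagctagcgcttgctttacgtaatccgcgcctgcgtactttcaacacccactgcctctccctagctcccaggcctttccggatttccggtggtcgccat

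A tract at the listed start was present in 12 of the 63 members (19.0%) and in 661 of 26962 other genes in the table (2.45%). The motif CCGGAAG, on either strand of the whole entry (250 bases before the start and 50 from it), was present in 25 of the 63 members (39.7%) and in 9.05% of the other genes. Rpl28, Rpl35, Rpl38 and Rps6 carry the tract at the listed start. Rpl13a and Rps26 each have a pyrimidine run that begins a few bases inside the transcript and so did not count. A match describes these letters only, and the listed start can differ from the start used in the hippocampus.

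Levels are given as log2 of the processed signal minus the 75th percentile of the array's non-control probes, so a level of 0 lies at that percentile, and levels of different probes are not set against each other. The members were bright: on all 16 arrays 81 of 83 exceeded background clearly, by the scanner's flag, and 67 of 83 lay in the brightest of 20 classes of equal size into which all probes were divided. The median level of those 67 genes was 6.04, against 4.51 for the 1037 other genes of that class, and no member spot was saturated. The exceptions were both paralogs, Rpl3l, well above background on 15 arrays, and Rpl39l, well above background on 8.

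The series as a whole has limits that touch every comparison below. Each group was hybridised on a slide that held no other group, and slide and group therefore cannot be told apart. The brightest class shifted as a whole: its other probes averaged -0.07 on the SAM/P-8 CCH arrays, 0.02 on the SAM/P-8 control arrays, 0.01 on the SAM/R-1 CCH arrays and 0.04 on the SAM/R-1 control arrays, as log2 deviations from their mean over the arrays. The added E1A control transcripts averaged -0.19 ± 0.104 with CCH and -0.03 ± 0.010 with control diet for SAM/P-8, and 0.07 ± 0.200 with CCH and 0.15 ± 0.239 with control diet for SAM/R-1 (SD, n = 4 arrays each). SAM/P-8 CCH replicate 4 stood apart: striatal markers such as Drd1, a dopamine receptor gene, were at 1.51 on it and between -3.50 and -2.33 on the other arrays, and the 7 striatal markers, 5 of them above background on all arrays, had a median log2 deviation of 4.33 on it, against -0.74 to 0.26 on the other arrays. The 6 choroid plexus markers differed widely between arrays within every group, from -3.02 to 1.06 and from -1.81 to 1.62 in SAM/P-8 with CCH and control diet, and from -2.34 to 0.98 and from -1.20 to 1.5 in SAM/R-1. The 2 red blood cell markers measured stood at 1.64 and 2.58 on SAM/P-8 control replicates 1 and 2, against -0.97 to 0.27 on the other arrays. Of these signals the part in the results was not tested, and the results without that array are given with them. In whole hippocampus, fewer cells of a type and less RNA per cell cannot be told apart.

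The members moved together from array to array. Around the group means, 2 members correlated at a median r of 0.57 over the 16 arrays, and the 67 members of the brightest class at 0.64, whereas 2 other genes of that class correlated at 0.22. The mitochondrial ribosomal protein genes had a median r of 0.37 and the respiratory chain and ATP synthase genes 0.41. After each array was centred on the other probes of the same brightness class, the values were 0.43 for all members, 0.51 for the members of the brightest class and 0.00 for the other genes of that class, with 0.14 for the mitochondrial ribosomal protein genes and 0.32 for the respiratory chain and ATP synthase genes. The centring takes out the shared movement of the other probes of a class, and members were left out of it. The value of 0.00 for the other genes therefore follows from the centring and is no measure to set the members against. All the correlations are descriptions over arrays that share slides and scaling.

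The median member stood at -0.12, -0.07, -0.11 and -0.09 on the SAM/P-8 CCH arrays and at -0.07, 0.15, 0.08 and 0.05 on the SAM/P-8 control arrays, as a log2 deviation from each gene's mean over the 16 arrays. In SAM/R-1 it stood at -0.06, 0.04, 0.06 and -0.03 on the CCH arrays and at 0.04, 0.05, 0.05 and 0.02 on the control arrays. All 4 SAM/P-8 CCH arrays were low, and control replicate 1 of SAM/P-8 lay beside them, far from the other 3 arrays of its own group. After centring on equally bright probes the SAM/P-8 arrays ranged from -0.08 to 0.03 with CCH and from -0.00 to 0.09 on the control diet, so the groups overlapped. The overlap came from CCH replicate 4, the array with striatal markers, at 0.03. CCH replicates 1, 2 and 3 stood at -0.04, -0.03 and -0.08, below every SAM/P-8 control array.

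**Figure D1:**
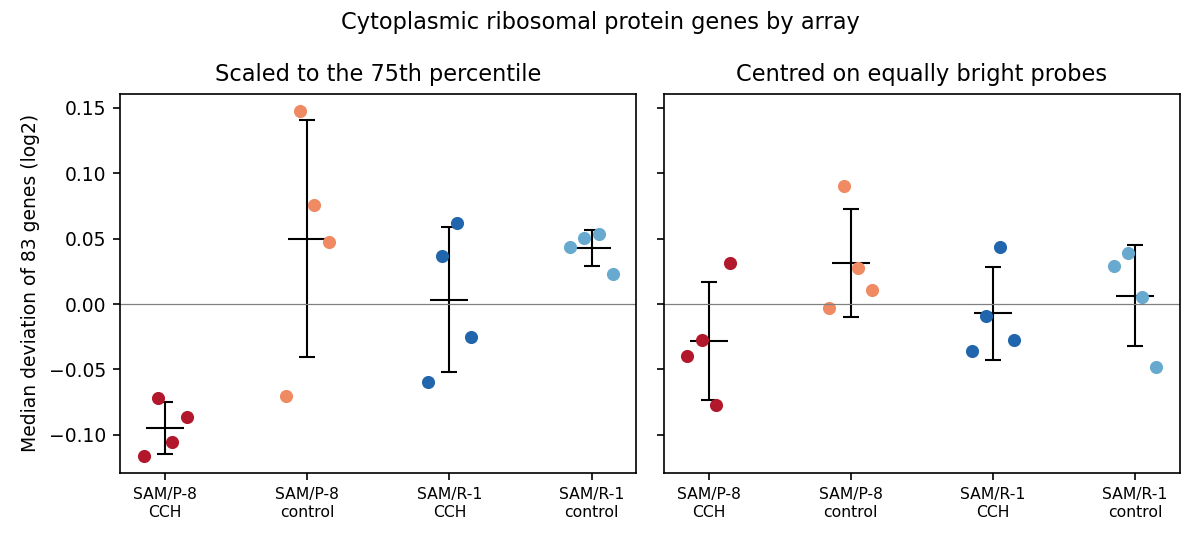
Median log2 deviation of the 83 cytoplasmic ribosomal protein genes on each array (points), with the group mean and SD (bars, n = 4 arrays), scaled to the 75th percentile (left) or centred on other probes of equal brightness (right). On the left the SAM/P-8 CCH arrays sit between -0.12 and -0.07, and on the right they range from -0.08 to 0.03 and overlap the other groups. The overlap with SAM/P-8 control on the right comes from SAM/P-8 CCH replicate 4 alone, at 0.03.

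Whether the strains differ was asked on each diet separately, from arrays that the other diet does not share. Rpl13a, Rpl30 and Rpl36, all of the large subunit, had lower levels in SAM/P-8 than SAM/R-1 on both diets, with folds of 0.76 to 0.85, and Rpl28 was higher in SAM/P-8 on the control diet. On the control diet 39 of 83 members had a negative difference, where 61.0% of the other genes in the brightest class did. The median was 0.00, against -0.01 over all genes tested, and 0.18 when arrays were scaled to the E1A controls instead. On CCH 74 of 83 were negative, where 79.6% of the other genes in the brightest class were. The median was -0.08, against -0.02 over all genes and -0.08 over other genes of the same brightness. This median of the members was positive, at 0.19, with E1A scaling.

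Markers of other cell types differed between the strains as well, read as the median log2 deviation over each list, all of whose measured genes were above background on all arrays. The 5 endothelial markers ranged from 0.13 to 0.57 in SAM/P-8 control, against -0.58 to -0.15 in SAM/R-1 control, and from 0.01 to 0.47 in SAM/P-8 CCH, against -0.25 to 0.07 in SAM/R-1 CCH. The 6 markers of meninges and fibroblasts ranged from 0.01 to 0.85 in SAM/P-8 CCH, against -0.47 to -0.14 in SAM/R-1 CCH, and from -0.20 to 0.88 in SAM/P-8 control, against -0.74 to 0.04 in SAM/R-1 control. The strains were thus apart on the control diet for the endothelial list and on CCH for the meningeal list, and overlapped in the other comparison of each. The median of the 4 astrocyte markers was narrowly apart on the control diet, at -0.016 to 0.118 in SAM/P-8 and -0.094 to -0.023 in SAM/R-1. It overlapped on CCH, at -0.036 to 0.140 and -0.143 to 0.024. Singly, on the control diet Gfap and Slc1a3 were higher in SAM/P-8 without overlap, and Aqp4 overlapped. Aldh1l1 went the other way, at 1.78 to 1.86 in SAM/P-8 and 1.88 to 2.01 in SAM/R-1. The list of hippocampal pyramidal cells overlapped on both diets. Singly, its member Spink8 was higher in SAM/P-8 on CCH, at 2.19 to 2.86 against 0.71 to 1.04. On the control diet it was at 2.90 to 3.21 against 1.03 to 1.46. Zbtb20 was lower on CCH, at 2.23 to 2.54 against 2.56 to 2.71. The oligodendrocyte list overlapped on both diets. On CCH SAM/P-8 replicates 1 to 3 were at -0.21 to -0.05 and replicate 4 at 0.70, against 0.02 to 0.24 in SAM/R-1. The part of these markers in the strain differences below was not tested.

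Rpl13a, whose protein can leave the ribosome to silence inflammatory messages, was read by 1 probe. Its level was 5.53, 5.56, 5.47 and 5.43 in SAM/P-8 CCH, against 5.77, 5.95, 6.0 and 5.84 in SAM/R-1 CCH. On the control diet it was 5.56, 5.70, 5.63 and 5.60 in SAM/P-8, against 5.85, 5.82, 5.85 and 5.92 in SAM/R-1. Every SAM/P-8 array was below every SAM/R-1 array on the same diet. The difference was -0.39 ± 0.056 on CCH (SE, limma, Benjamini-Hochberg adjusted p = 0.00020) and -0.24 ± 0.056 on the control diet (adjusted p = 0.0095). It was the only member past the threshold on CCH after normexp background correction as well, at an adjusted p of 0.0044.

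Rpl30, a small protein near the interface of the subunits that in yeast regulates its own splicing, was also read by 1 probe. It had levels of 4.30, 4.45, 4.46 and 4.48 in SAM/P-8 CCH, against 4.68, 4.77, 4.90 and 4.79 in SAM/R-1 CCH. On the control diet they were 4.32, 4.65, 4.64 and 4.59 in SAM/P-8, against 4.76, 4.85, 4.88 and 4.86 in SAM/R-1. The strains did not overlap on either diet, although replicate 1 lay well below the other arrays in both SAM/P-8 groups. The difference was -0.37 ± 0.074 on CCH (adjusted p = 0.0040) and -0.29 ± 0.074 on the control diet (adjusted p = 0.018).

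Rpl36 encodes a large-subunit protein and was the one of these genes with a second probe. The brighter probe gave 4.69, 4.67, 4.66 and 4.67 in SAM/P-8 CCH, against 4.93, 5.06, 5.02 and 4.92 in SAM/R-1 CCH. It gave 4.78, 4.88, 4.86 and 4.83 in SAM/P-8 control, against 5.0, 5.12, 5.11 and 5.06 in SAM/R-1 control. Again no SAM/P-8 array reached the SAM/R-1 arrays of its diet. The difference was -0.31 ± 0.045 on CCH (adjusted p = 0.00027) and -0.23 ± 0.045 on the control diet (adjusted p = 0.0026). The second probe gave -0.26 (adjusted p = 0.0028) and -0.17 (adjusted p = 0.033).

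All 3 genes were past the threshold on both diets after centring on equally bright probes too, with differences of -0.31 for Rpl13a, -0.29 for Rpl30 and -0.23 for Rpl36 on CCH. With scaling to the E1A controls they were negative but none passed. Sequence at the probes in the strains was not analysed here.

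**Figure D2:**
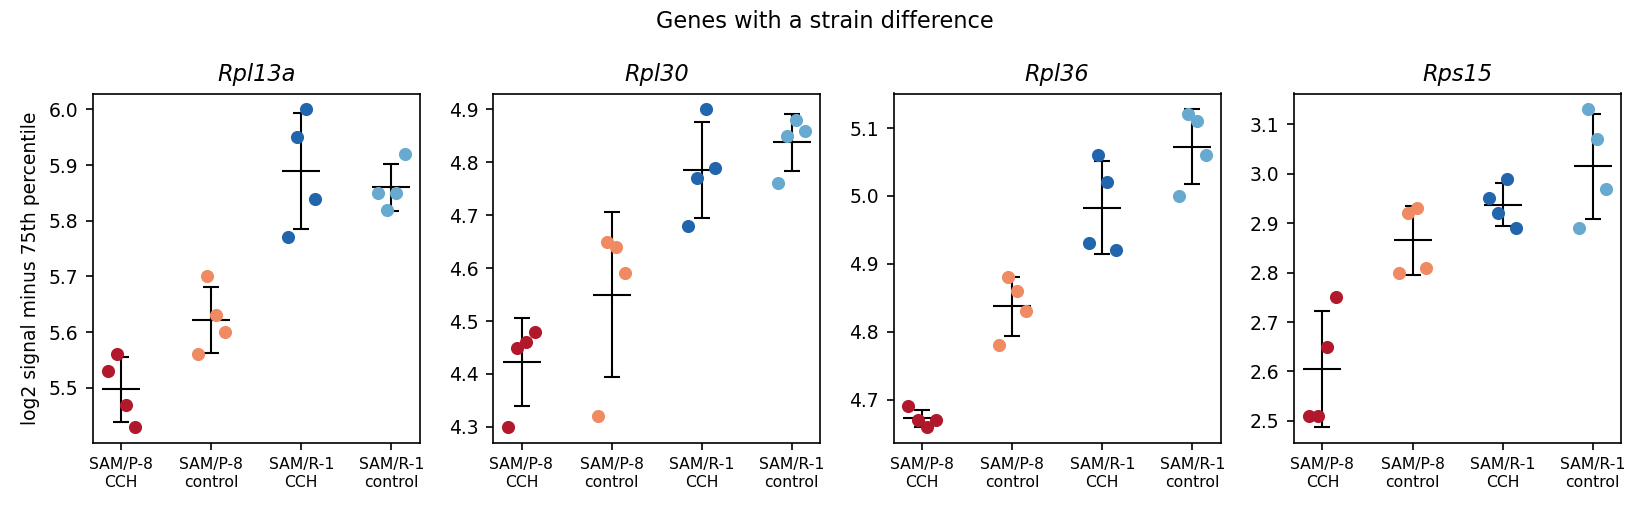
Level of Rpl13a, Rpl30, Rpl36 and Rps15 on each array (points; log2 signal minus the array's 75th percentile), with the group mean and SD (bars, n = 4 arrays). For Rpl13a, Rpl30 and Rpl36 every SAM/P-8 array lies below every SAM/R-1 array of the same diet, and for Rps15 this holds on CCH but not on the control diet.

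On CCH 11 members were lower in SAM/P-8 and none was higher (limma, adjusted p below 0.05), where 6.52% of all genes tested were lower and 6.13% were higher. Among the other genes of the brightest class 11.7% were called in either direction. The arrays of the strains did not overlap for 27 members that were lower, against a background of 12% of all genes and 22.1% of the other genes in the brightest class, and for 1 that was higher, against 8.6% of all genes. Besides the 3 genes above, the 11 included Rps15, of the small subunit, and Rpl29, Rpl13, Rpl38, Rpl37, Rpl12 and Rpl8, of the large subunit. Unadjusted, 27 members had p below 0.05, and the share of all genes at that level was not computed.

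Rps15, which takes part in the export and maturation of the small subunit, had levels of 2.51, 2.51, 2.65 and 2.75 in SAM/P-8 CCH, against 2.95, 2.92, 2.99 and 2.89 in SAM/R-1 CCH. Its difference on CCH was -0.33 ± 0.065 (adjusted p = 0.0032). On the control diet it was 2.80, 2.92, 2.93 and 2.81 in SAM/P-8, against 2.89, 3.13, 3.07 and 2.97 in SAM/R-1, groups that overlapped, with a difference of -0.15 (adjusted p = 0.16). Rpl29, a heparin-binding protein of the large subunit, differed by -0.23 on CCH (adjusted p = 0.029), and its 4 probes ranged from -0.32 to -0.11. Rpl13 differed by -0.22 (adjusted p = 0.013) and Rpl38, which in mouse embryos favours translation of a subset of Hox messages, by -0.20 (adjusted p = 0.012). Rpl29, Rpl13 and Rpl38 turned positive, at 0.03 to 0.06 with no call, with scaling to the E1A controls, under which 5 of the 83 members were negative.

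After centring on equally bright probes 6 members were past the threshold on CCH, all among the 11: Rpl13a, Rpl30, Rps15, Rpl36, Rpl29 and Rpl38. Without SAM/P-8 CCH replicate 4 the count with 75th percentile scaling was 8. It was 7 without SAM/P-8 CCH replicate 1 or 2, and 6 without SAM/P-8 CCH replicate 3, SAM/R-1 CCH replicate 2 or SAM/R-1 CCH replicate 3. The members that were furthest the other way on CCH did not pass, with Rpl4 at 0.10 (adjusted p = 0.27), Rpl27a at 0.10 (adjusted p = 0.31) and Rpl31 at 0.09 (adjusted p = 0.37).

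On the control diet 3 members were lower in SAM/P-8, where 6.66% of all genes were, and 1 was higher, where 6.17% were, and 6.46% of the other genes in the brightest class were called in either direction. The arrays did not overlap for 4 members that were lower and 3 that were higher, against 10.2% and 8.71% of all genes, so the shares of members lay below the background in both directions. The member that was higher was Rpl28, a large-subunit protein with a pyrimidine tract at its listed start. Its level was 5.04, 5.16, 5.01 and 5.0 in SAM/P-8 control, against 4.87, 4.86, 4.88 and 4.93 in SAM/R-1 control, and no arrays overlapped. The difference was 0.17 ± 0.052 (adjusted p = 0.047), and the gene passed in 3 of the 16 fits that left out 1 array. The count of members past the threshold on the control diet was 2 without SAM/R-1 control replicate 3. On CCH it was 4.79, 4.82, 4.87 and 4.98 in SAM/P-8, against 4.78, 4.78, 4.87 and 4.85 in SAM/R-1, and the groups overlapped.

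Rps27a, a fusion of ubiquitin with a small-subunit protein, was 0.15 higher in SAM/P-8 on the control diet (adjusted p = 0.15), and Rps6, the S6 kinase substrate, was 0.15 higher (adjusted p = 0.071). Neither passed the threshold, but both did after centring on equally bright probes, at 0.17 (adjusted p = 0.043) and 0.16 (adjusted p = 0.033). Over the 81 members detected on all arrays, the strain difference on CCH and that on the control diet, which share no arrays, correlated at r = 0.73, given as a description over genes.

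**Figure D3:**
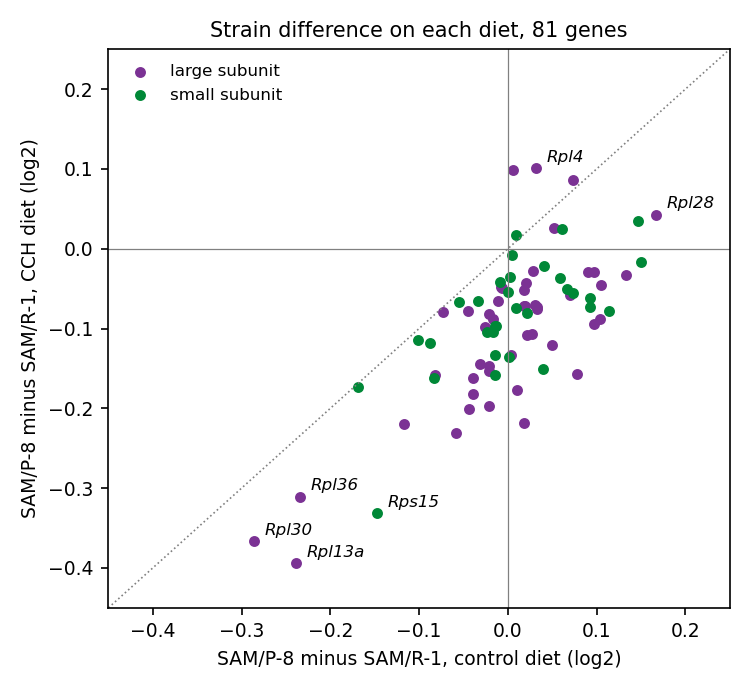
Difference of SAM/P-8 minus SAM/R-1 for the 81 members well above background on all arrays, on the control diet (x axis, log2) and on CCH (y axis, log2), with each point a gene and the dotted line marking equal differences. Rpl13a, Rpl30 and Rpl36 lie far down on both axes, Rpl28 lies furthest right, and most points lie below the dotted line. The offset from that line is the interaction, with a median over all 83 members of -0.10, also negative with scaling to the E1A controls. The median on the y axis, -0.08 over all members, is positive at 0.19 with that scaling.

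In SAM/P-8 nearly all ribosomal protein genes had slightly lower levels with CCH, as did most equally bright genes, unless arrays were scaled to the E1A controls. Of 83 differences 78 were negative, where 81.2% of the other genes in the brightest class were. The median was -0.14, with -0.15 for large-subunit and -0.13 for small-subunit genes. The median over all genes was -0.02, and over other genes of the brightest class it was -0.08, so the members stood at a median of -0.06 relative to genes of their own brightness. With scaling to the E1A controls the median member difference was 0.02, with 36 of 83 negative.

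Of the members, 3 were lower with CCH in SAM/P-8 and none was higher (limma, adjusted p below 0.05), where 0.372% of all genes tested were lower and 0.416% were higher, and 0.771% of the other genes in the brightest class were called in either direction. The arrays of the diets did not overlap for 36 members that were lower, against 6.33% of all genes and 14.2% of the other genes in the brightest class, and for none that was higher, against 3.29% of all genes. Unadjusted, 52 members had p below 0.05, and the share of all genes at that level was not computed. Rps26 was among the 3.

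Rps26 encodes a protein at the messenger RNA exit of the small subunit. Its level was 3.67, 3.68, 3.57 and 3.64 in SAM/P-8 CCH, against 3.87, 4.09, 4.05 and 3.86 in SAM/P-8 control. No arrays overlapped, and the control arrays fell into 2 high and 2 lower ones. The difference was -0.33 ± 0.062 (adjusted p = 0.029), a fold of 0.80. In SAM/R-1 its level was 3.8, 3.68, 3.91 and 3.77 with CCH, against 3.94, 3.94, 3.91 and 3.92 on the control diet, a difference of -0.14 that did not pass (adjusted p = 0.45).

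Rpl35, a large-subunit protein near the exit of the nascent chain, was at 4.72, 4.79, 4.69 and 4.71 in SAM/P-8 CCH, against 4.83, 5.09, 4.97 and 4.93 in SAM/P-8 control. The groups did not overlap, but the difference of -0.22 ± 0.055 missed the threshold (adjusted p = 0.069). In SAM/R-1 it was at 4.84, 4.92, 4.96 and 4.81 with CCH, against 4.98, 4.96, 5.01 and 4.94 on the control diet, groups that overlapped.

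The 3 calls in SAM/P-8 were not stable. None of them passed after centring on equally bright probes, quantile normalization or normexp background correction, and none without any one of the 4 SAM/P-8 CCH arrays or SAM/P-8 control replicate 2 or 3, whereas 16 members passed without SAM/P-8 control replicate 1. The count was 1 without SAM/R-1 CCH replicate 1 or 4 or SAM/R-1 control replicate 1 or 3, arrays that enter this comparison only through the shared spread. The sign of each was negative in every alternative tried.

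The members next to the threshold were Rpl36al at -0.25 (adjusted p = 0.0502), Rpl38 at -0.20 (adjusted p = 0.060), Rps9 at -0.21 (adjusted p = 0.063), Rpl37 at -0.22 (adjusted p = 0.065) and Rpl19 at -0.21 (adjusted p = 0.066), and Rps15 stood at -0.26 (adjusted p = 0.072). At the other end Rpl7l1 at 0.11, Rpl4 at 0.03, Rpl21 at 0.03, Rpsa at 0.01 and Rpl31 at 0.00 had no negative difference, and none of them passed. Rpl21 was read by 1 dim probe in class 6 of 20, and a second, dimmer probe of Rpsa, the laminin receptor gene, gave -0.18. Of the 28 members with several probes, 25 had the same sign on all of them.

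The 12 members with a pyrimidine tract at the listed start had a median difference of -0.18 in SAM/P-8, within a range of -0.22 to -0.08, and the 51 members with an entry and no tract had a median of -0.13. In SAM/R-1 the medians were -0.07 and -0.05. The difference between these classes of genes was not tested, and Rpl13a and Rps26 counted as having no tract.

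**Figure D4:**
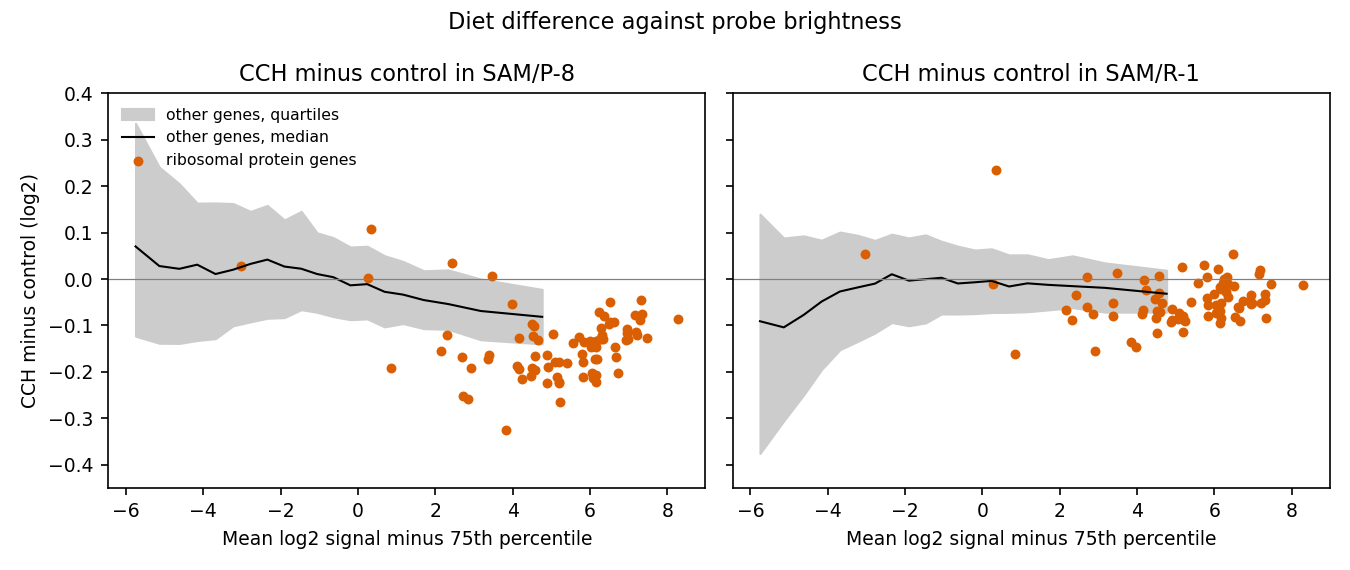
Difference of CCH minus control in SAM/P-8 (left) and SAM/R-1 (right) against mean level, for the 81 members well above background on all arrays (points) and for all other genes by brightness class (line, median; band, quartiles). In SAM/P-8 the other genes drift to a median of -0.08 in the brightest class and most members lie below that line; in SAM/R-1 the line ends at -0.03. With scaling to the E1A controls the median member difference is 0.02 in SAM/P-8 and 0.03 in SAM/R-1.

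In SAM/R-1 no member was called for CCH (limma, adjusted p below 0.05), where 0.104% of all genes were called in either direction. Unadjusted, 5 members had p below 0.05, and the share of all genes at that level was not computed. Of 83 differences 68 were negative, where 65.7% of the other genes in the brightest class were. The median difference was -0.05, against -0.02 over all genes and -0.03 over genes of the same brightness, and it was 0.03 with scaling to the E1A controls. The arrays did not overlap for 1 member that was lower (5.65% of all genes) and 1 that was higher (4.23% of all genes), namely Rps19 and Rpl7l1. Rps19, the small-subunit gene most often mutated in Diamond-Blackfan anaemia, had 0.84, 0.78, 0.87 and 0.81 with CCH, against 0.90, 1.02, 0.98 and 1.05 on the control diet, a difference of -0.16 (adjusted p = 0.31). The median deviation over the 5 markers of hippocampal pyramidal cells did not overlap between the diets of this strain either. It was -0.15 to -0.06 with CCH, against -0.01 to 0.08 on the control diet. In SAM/P-8 it overlapped, at -0.39 to 0.09 with CCH and -0.01 to 0.28 on the control diet. Taken singly, each of the 5 markers overlapped between the diets in SAM/R-1. In SAM/P-8 Zbtb20 was lower with CCH without overlap, at 2.23 to 2.54 against 2.61 to 2.97. So was Spink8, at 2.19 to 2.86 against 2.90 to 3.21, whereas Fibcd1, Wfs1 and Neurod6 overlapped. The part of the pyramidal cell markers in the diet differences was not tested.

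The CCH effect in SAM/P-8 minus that in SAM/R-1 was tested as an interaction, and no member passed (limma, adjusted p below 0.05), where 0.134% of all genes did. Unadjusted, 10 members had p below 0.05, and the share of all genes at that level was not computed. The interaction was negative for 78 of 83 members, where it was for 76.9% of the other genes in the brightest class. Its median was -0.10, against -0.06 over those other genes, and ranged from -0.02 with E1A scaling to -0.16 with array median scaling. The largest sizes among detected members were -0.24 for Rpl17 (adjusted p = 0.87) and -0.23 for Rpl19 (adjusted p = 0.60). The diet effects of the strains were therefore not shown to differ for any single member.

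Averaged over both strains, 9 members were lower with CCH and 1 was higher (limma, adjusted p below 0.05), where 2.58% of all genes were lower and 1.58% were higher, and 5.40% of the other genes in the brightest class were called in either direction. Of 83 differences 80 were negative, where 76.9% of the other genes in the brightest class were. The median was -0.10, against -0.02 over all genes and -0.06 over genes of the same brightness, and it was 0.02 with E1A scaling. The 9 included Rps26 at -0.23 (adjusted p = 0.018), Rps19 at -0.18 (adjusted p = 0.030), and Rpl35, Rpl36al, Rpl37, Rps21 and Rpl36, between -0.16 and -0.13. Rps26 passed in all 16 fits that left out 1 array, Rps19 in 7, Rpl35 and Rps21 in 4, and Rpl36al, Rpl37 and Rpl36 in 3. Rps26 and Rps19 were lower and past the threshold after centring on equally bright probes as well, at -0.17 and -0.16. The count was 9 without SAM/P-8 CCH replicate 4 and 32 without SAM/P-8 control replicate 1. It was 1 to 3 without SAM/P-8 CCH replicate 1 or 3, SAM/P-8 control replicate 2 or 3, SAM/R-1 CCH replicate 1, 3 or 4, or SAM/R-1 control replicate 2, 3 or 4, and 5 and 6 without SAM/P-8 control replicate 4 and SAM/R-1 control replicate 1.

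Rpl7l1, a nucleolar paralog of Rpl7 that acts in ribosome assembly, was the member that was higher. Its level was 0.56, 0.29, 0.49 and 0.31 in SAM/P-8 CCH, against 0.39, 0.21, 0.36 and 0.26 in SAM/P-8 control, and 0.38, 0.47, 0.52 and 0.40 in SAM/R-1 CCH, against 0.24, 0.20, 0.17 and 0.23 in SAM/R-1 control. The diets overlapped in SAM/P-8 and were apart in SAM/R-1. The averaged difference was 0.17 ± 0.046 (adjusted p = 0.0496), and it was positive under every scaling tried, but it passed in only 3 of the 16 fits that left out 1 array and in 5 of 13 other settings. Its second, dimmer probe averaged 0.01 (adjusted p = 0.91), and its partner Rpl7 averaged -0.11 (adjusted p = 0.16).

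**Figure D5:**
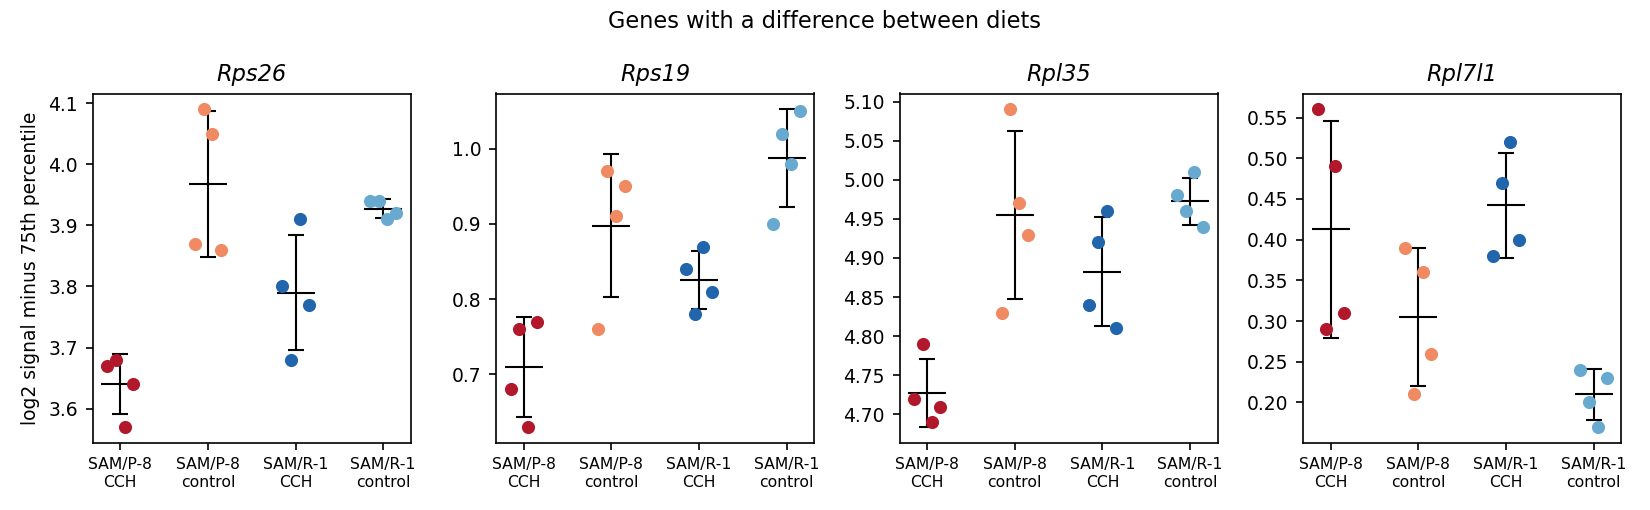
Level of Rps26, Rps19, Rpl35 and Rpl7l1 on each array (points; log2 signal minus the array's 75th percentile), with the group mean and SD (bars, n = 4 arrays). For Rps26 and Rpl35 all SAM/P-8 CCH arrays lie below all SAM/P-8 control arrays, for Rps19 all SAM/R-1 CCH arrays lie below all SAM/R-1 control arrays, and for Rpl7l1 all SAM/R-1 CCH arrays lie above all SAM/R-1 control arrays.

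The other paralogs and special members were mostly near the body of the family. Rps27l, a p53-induced paralog of Rps27, averaged -0.17 with CCH (adjusted p = 0.062), against -0.08 for Rps27. Rpl22l1, which can replace Rpl22 in the ribosome, averaged -0.12 (adjusted p = 0.16), and Rpl22 averaged -0.10 (adjusted p = 0.14). Rpl36al averaged -0.16 (adjusted p = 0.042) and its X-linked partner Rpl36a -0.13 (adjusted p = 0.084). Signals of near-identical messages can mix on a probe, and this was not tested.

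Of the P-stalk genes, Rplp0 averaged -0.08, Rplp1 -0.05 and Rplp2 -0.03 with CCH over both strains, and none passed in any of the 6 comparisons. Rpl41, the shortest of the proteins, averaged -0.13 (adjusted p = 0.080). The muscle-type paralog Rpl3l was dim and did not pass in any comparison, and its partner Rpl3 differed by -0.13 in SAM/P-8 (adjusted p = 0.29). Rpl39l, a paralog of Rpl39 best known from male germ cells, was well above background on 1 SAM/P-8 CCH array and no SAM/P-8 control array, against 4 SAM/R-1 CCH arrays and 3 SAM/R-1 control arrays. Its fitted strain differences of -1.80 on CCH (adjusted p = 0.17) and -1.20 on the control diet (adjusted p = 0.39) did not pass and rest on signals near background.

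Genes that work with the ribosome were read from lists for context. With E1A scaling every CCH difference moves up, by 0.16 in SAM/P-8 and by 0.08 in SAM/R-1, which exceeds the size of the negative medians given below for those strains. Of the ribosomal proteins under other names, Fau and Rack1 differed by -0.16 and -0.11 with CCH in SAM/P-8, and neither passed. Among 12 translation elongation and TOP messages, 12 had negative differences in SAM/P-8 with a median of -0.11, and none passed; Eef1a1, the main elongation factor, was at -0.08. Among 29 initiation factors the median was -0.08 and none passed in SAM/P-8, and Eif6, which keeps the large subunit from joining too early, was lower with CCH on average at -0.14 (adjusted p = 0.042).

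Among 39 ribosome biogenesis factors the median in SAM/P-8 was -0.01, with 20 negative and none called. On average over strains Polr1b, a subunit of RNA polymerase I, was higher with CCH at 0.27 (adjusted p = 0.028). Of 18 genes of the mTORC1 and S6 kinase pathway, 8 were negative in SAM/P-8 and the median was 0.01. Within that list the strains differed for Eif4ebp1, a translation repressor that mTORC1 inactivates, by -0.85 on CCH and -0.96 on the control diet, and for its paralog Eif4ebp2 by 0.30 (adjusted p = 0.019) and 0.38 (adjusted p = 0.0043). Eif4ebp2 was also higher with CCH on average, at 0.32 (adjusted p = 0.010).

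The mitochondrial ribosomal protein genes, which encode a separate ribosome, had a median of -0.11 in SAM/P-8 over 78 genes, with 72 negative and 2 called lower, and of -0.07 in SAM/R-1, with 71 negative and none called. The respiratory chain and ATP synthase genes had medians of -0.13 in SAM/P-8 and -0.07 in SAM/R-1 over 80 genes, with 6 called lower in SAM/P-8 and none in SAM/R-1. Relative to genes of equal brightness these lists stood at -0.05 and -0.06 in SAM/P-8, beside -0.06 for the cytoplasmic members. In SAM/R-1 they stood at -0.05 and -0.04, beside -0.02. Averaged over both strains, 11 of the 78 and 15 of the 80 genes were called lower with CCH, where 2.58% of all genes were.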

How the data were processed

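Hippocampal RNA was hybridised to 16 one-colour Agilent arrays, 4 per group. The deposited scanner files hold spot intensity, background-subtracted and detrended by Agilent Feature Extraction 9.5.3.1 per the file headers, and other values, flags for spots above background, per the file headers. The authors' deposited table is on a log2 scale centred per probe and correlated with the scanner values at 0.9997 or more once these were centred alike. Its centring step is not described in the sources used here.

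The log2 processed signal minus each array's 75th percentile was averaged per probe, and 29009 of 41174 probes, those above background on every array of at least 1 group, entered the fit. Of these arrays' 43379 non-control spots, 28920 to 33333 were well above background; the number of arrays limits the precision. Probes were named through RefSeq accessions (24844 named), and a gene is its brightest kept probe. limma 3.58.1 in R 4.3.3 fitted group means over 16 arrays (12 residual degrees of freedom) and 6 contrasts, with Benjamini-Hochberg adjustment over all probes kept and a threshold of 0.05. The fit was tested on simulated data.

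Replicate numbers matched the position on the slide for 16 of 16 arrays, and same-numbered arrays correlated between -0.25 and 0.30, so the numbers were not taken to pair samples. Alternatives were another background correction, scaling, filter, probe rule, variance model, set of groups, value table, a replicate block, centring by brightness class and leaving out each array. Scaling to the E1A controls, 100 brightness classes in place of 20, and centring without SAM/P-8 CCH replicate 4 were chosen after seeing the data.

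Named genes are all members past the threshold where 10 or fewer passed, otherwise the 8 furthest each way, with the 4 largest and 4 smallest differences, the paralogs with their partners, the P-stalk genes, Rpsa, Rps27a and Rpl41. Results of some single genes are not reported here, and counts and medians hold all members. Rpl12, Rpl37 and Rpl8 belong to a list of 11 and were named after their values were seen, as were other genes named as near the threshold. The members, lists and tests were chosen with earlier results of these data known.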

Additional observations from a re-analysis of the deposited data

Results flagged for a closer look

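Of 184 groups of 4 arrays among the genes named by rule, 5 held an array far from the other 3 by Dixon's criterion, where chance flags about 1 in 20 groups. Rpl30 stood at 4.30 on SAM/P-8 CCH replicate 1, against 4.45 to 4.48 on the other 3 arrays, and at 4.32 on SAM/P-8 control replicate 1, against 4.59 to 4.65. Rplp1 stood at 8.16 on SAM/P-8 control replicate 1, against 8.33 to 8.36, the array on which the median member was also lowest of its group. Rpl22 stood at 4.21 on SAM/P-8 CCH replicate 4, the array with striatal markers, against 4.01 to 4.04. Rpl36a stood at 5.03 on SAM/P-8 CCH replicate 2, against 4.96 to 4.97.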

How the results depend on the processing

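The strain differences of Rpl13a, Rpl30 and Rpl36 held best, and the CCH differences depended on scaling, brightness and single arrays; the causes were not tested. For the strain difference on CCH, 11 members were called and 1 was with normexp, 5 with quantile normalization, 6 with brightness-class centring, 5 with 100 classes, 6 with the groups of the contrast only and 0 with E1A scaling; the median moved to -0.014 with quantile normalization, -0.0093 with centring, -0.0044 with 100 classes and 0.19 with E1A scaling. On the control diet 4 were called, and 0 with normexp, 2 with array median scaling, 2 with the groups of the contrast only, 0 with E1A scaling and 7 with centring without SAM/P-8 CCH replicate 4; the median was 0.18 with E1A scaling. For CCH in SAM/P-8, 3 were called, and 0 with normexp, quantile normalization, the groups of the contrast only, E1A scaling and centring in all 3 forms (20 classes, 100 classes, and without SAM/P-8 CCH replicate 4), 1 with no filter and 14 with a variance trend; the median was -0.053 with quantile normalization, -0.058 with 20 and -0.056 with 100 classes, -0.082 with centring without that array and 0.025 with E1A scaling. In SAM/R-1 the median was 0.026 with E1A scaling. Averaged over strains 10 were called, and 3 with normexp, 2 with quantile normalization, 3 with array median scaling, 3 with 20 and 3 with 100 classes, 22 with a variance trend, 0 with E1A scaling and 1 with centring without SAM/P-8 CCH replicate 4; the median was -0.043 with quantile normalization, -0.044 with 20 and -0.045 with 100 classes, and 0.020 with E1A scaling. The interaction median was -0.039 with quantile normalization, -0.16 with array median scaling, -0.041 with 20 and -0.040 with 100 classes, and -0.015 with E1A scaling. E1A scaling shifted all genes by 0.27 and 0.18 in the strain differences and by 0.16 and 0.08 in the CCH differences, and turned these strain differences on CCH positive: Rpl13 to 0.046, Rpl29 to 0.034 and Rpl38 to 0.064. Leaving out single arrays gave 6 to 16 calls for the strain difference on CCH (medians -0.10 to -0.06), 2 to 5 on the control diet (-0.02 to 0.05), 0 to 16 for CCH in SAM/P-8 (-0.19 to -0.11), 0 to 0 in SAM/R-1 (-0.07 to -0.03), 1 to 32 on average (-0.12 to -0.08) and 0 to 0 for the interaction (-0.14 to -0.07). With the replicate block the counts were 14, 4, 2, 0, 10 and 0 in the same order, and the numbers share only a position.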
